A study of Mus musculus with 4 samples.

Results

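Inpp5f and 9 related phosphatase genes were followed in the ventricles of mouse embryos that lacked the histone deacetylase HDAC2. The 10 genes are Inpp5f, Inpp5a, Inpp5b, Inpp5d, Inpp5e, Inppl1, Synj1, Synj2, Ocrl and Sacm1l, out of 18193 genes that the array's annotation names. They were chosen by name, as inositol phosphatases, and every probe set (a group of 11 probe pairs for each of theirs) whose annotation names a single one of them was taken, 24 in all. Transcripts were measured on 4 Affymetrix MOE430v2 arrays, 2 of wild-type embryos (WT) and 2 of HDAC2-deficient littermates (KO), all at embryonic day 17.5 and on a mixed C57BL/6 and SV129 background. RNA was pooled from 2 animals for each WT array and from 3 for each KO array. The allele that removes HDAC2, and whether any cell type retains it, are not stated in the sources used here. Nothing in the labels says which pools shared litters, and the main fit did not pair them. The p-values rest on the spread between these pools alone, and that spread may be technical. For each probe set the fit drew this spread toward that of probe sets with similar signal.

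Phosphoinositides are membrane lipids whose inositol ring is marked with phosphates, and each pattern of phosphates recruits its own set of proteins. Inositol 5-phosphatases take the phosphate from the 5 position, which lowers a lipid that anchors Akt and the lipid that phospholipase C cleaves. Inpp5a, Inpp5b, Inpp5d, Inpp5e, Inppl1, Ocrl and both synaptojanins (Synj1 and Synj2) carry that catalytic domain. Inpp5f and Sacm1l carry a Sac phosphatase domain in its place, and the synaptojanins hold both kinds of domain. Inpp5f, also called SAC2, acts on endosomal phosphoinositides and has been studied as a gene that HDAC2 holds down in the growing heart, which is the question these arrays bear on. The group therefore holds phosphatases of phosphoinositides and, with Inpp5a, of soluble inositol phosphates, and not 5-phosphatases alone.

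The label of the KO arrays was checked on Hdac2 first. Its brightest probe set, 1445684_s_at, read 1188 and 1421 on the WT arrays and 31.4 and 21 on the KO arrays. The source field of both KO samples names wild type, but the Hdac2 signals went with the titles. Cardiomyocyte markers were Present (the MAS5 call for a detected probe set) on all 4 arrays for 12 of 12 genes, with summed signals of 131702 and 133848 on the WT arrays and 128734 and 136017 on the KO arrays. Transcripts of some other tissues differed between the groups. The summed signals of 14 skeletal muscle genes were 12533 and 13439 in WT against 1305 and 1308 in KO, with Myod1 and Myog not Present on any array, and 10 of the 12 tested genes fell in KO, among them Tnnc2 from 2418 and 2161 to 5.6 and 34.6, both Absent. The 9 bone and cartilage genes summed to 561 and 639 on the WT arrays and 292 and 327 on the KO arrays, and 2 of 5 tested fell, Mmp13 and Ibsp, with Col2a1 and Col10a1 not Present on any array. The 12 leukocyte genes summed to 1589 and 1667 on the WT arrays and 1353 and 1406 on the KO arrays. The 10 neuron and glia genes summed to 489 and 494 against 433 and 444, with Tubb3, Elavl4, Snap25 and Prph not Present on any array. The 5 erythroid genes summed to 469 and 550 on the WT arrays and 620 and 649 on the KO arrays, and 1 of 3 tested rose, Hbb-y. The 8 endothelial genes summed to 4070 and 4145 on the WT arrays and 3832 and 3917 on the KO arrays. No gene on these marker lists had a signal of 0. Xist, the RNA of the inactive X chromosome, read 80.5 and 90.1 on the WT arrays and 548 and 794 on the KO arrays at 1436936_s_at, and Eif2s3y and Uty of the Y chromosome fell, so the pools also differed in sex-linked transcripts. The part of these differences in the values below was not tested. The tissue is a bulk sample, in which fewer cells of a type and less RNA per cell cannot be told apart.

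The promoter windows of the genes were taken from RefSeq (build GRCm38.p6), 250 bases before to 50 after each start, and all 10 genes matched, with 15 windows. Those of Inpp5f and Sacm1l are shown because these are the genes without the 5-phosphatase domain and both had higher mean signals in KO. Capitals mark the GC box GGGCGG, or its complement CCGCCC, a motif read by Sp1-type factors. The Inpp5f window lies at chr7:128611115-128611414 on the plus strand and the Sacm1l window at chr9:123529503-123529802 on the plus strand.
Inpp5f: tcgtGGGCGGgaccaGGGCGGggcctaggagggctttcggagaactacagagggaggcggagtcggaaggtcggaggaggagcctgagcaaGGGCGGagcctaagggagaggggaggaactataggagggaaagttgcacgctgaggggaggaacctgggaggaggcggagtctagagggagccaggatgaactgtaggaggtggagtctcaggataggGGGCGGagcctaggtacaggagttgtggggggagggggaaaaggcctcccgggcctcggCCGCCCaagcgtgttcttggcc
Sacm1l: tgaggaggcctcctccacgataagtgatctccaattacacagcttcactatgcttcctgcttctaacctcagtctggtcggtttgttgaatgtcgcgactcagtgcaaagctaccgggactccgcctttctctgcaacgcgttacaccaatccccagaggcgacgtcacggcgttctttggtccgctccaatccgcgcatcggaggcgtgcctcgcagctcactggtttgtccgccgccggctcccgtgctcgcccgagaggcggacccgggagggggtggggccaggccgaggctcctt
The Inpp5f window held 5 GC boxes over both strands and 15 CpG dinucleotides. The Sacm1l window held 0 GC boxes and 27 CpG. A GC box on either strand was found in 9 of the 15 windows of the 10 genes, against 35.7% of 32851 mouse windows, and windows of 1 gene can overlap. Neither a TATA box (TATAAA, both strands) nor a CArG box, the motif named for serum response factor, was found in any of the 15 windows, against 13.6% and 1.63% of all windows. An E-box (CANNTG, which reads the same on both strands) was in 5 of the 15, or 33.3%, against 72.3% of all windows. These are matches of letters and were not set against the expression values.

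No gene of the family passed the test between WT and KO. Signals were compared on the log2 scale with limma across the 19065 probe sets for which both WT arrays or both KO arrays had a Present call. The p-values were adjusted over all of these by the Benjamini-Hochberg method, with 0.05 as the threshold. Of the 24 probe sets 13 could be tested, covering 9 genes, and 0 passed, where 1.34% of all probe sets tested did (0.383% higher and 0.960% lower in KO). At an unadjusted p under 0.05 there were 3, with 2 higher in KO (Inpp5f 1433542_at and Sacm1l 1416500_at) and 1 lower (Synj1 1436333_a_at), or 23.1% of 13 against a background of 15.5% (7.29% higher, 8.23% lower). Both KO signals lay beyond both WT signals at 5 of the 13 (38.5%), 3 above and 2 below, against 47.5% of all probe sets tested (25.0% above, 22.5% below), so neither share was read as a result about the family. The median difference, KO minus WT, was 0.041 over the 13 probe sets and 0.014 over all probe sets tested.

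**Figure D1:**
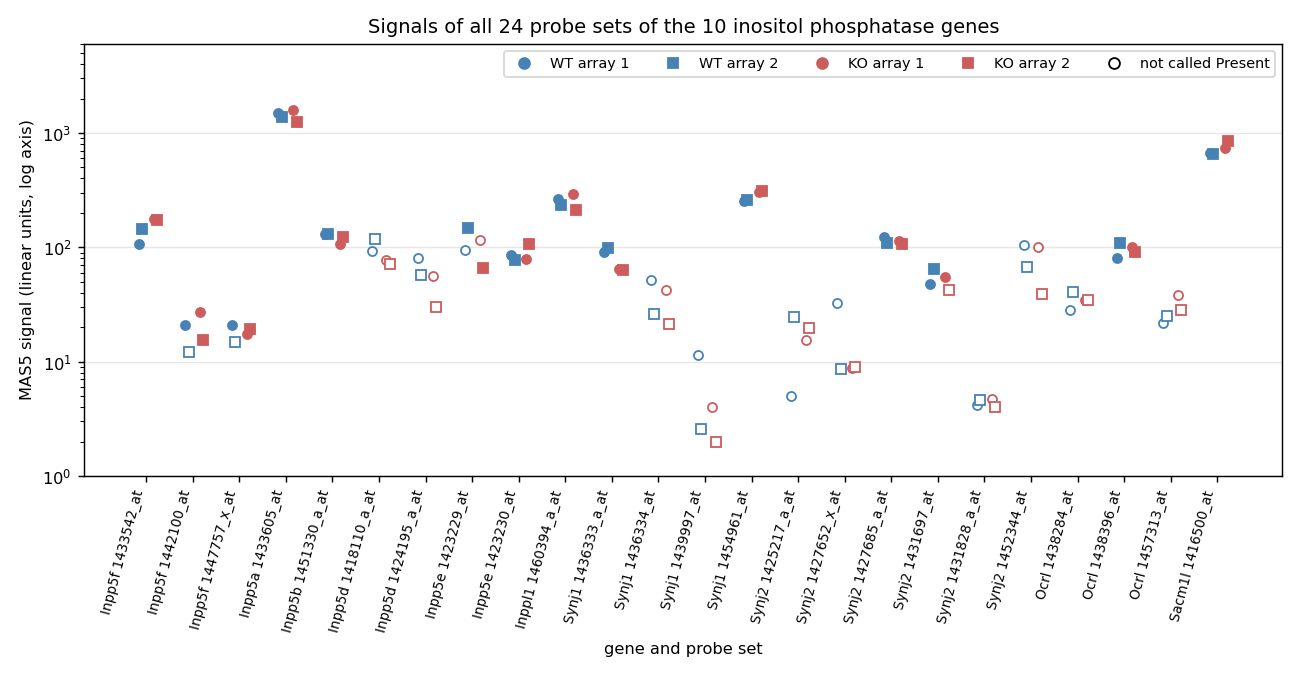
MAS5 signal (log axis) of all 24 probe sets of the 10 genes on each array, with blue for WT, red for KO, circles for array 1, squares for array 2 and open symbols where the probe set was not called Present. Signals can be compared between arrays within a probe set and not between probe sets, and at 10 of the 24 every symbol is open.

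The arrays could show only sizeable changes in these genes. For each gene's brightest tested probe set, a change of 1.45-fold (Sacm1l) to 2.05-fold (Inpp5e) would have been needed to reach an adjusted p of 0.05, given that probe set's standard error. At the dim Inpp5f probe set 1442100_at it would have taken 4.69-fold. The 95% intervals of the differences ran from ±0.27 (Sacm1l) to ±1.09 (Inpp5f 1442100_at) on the log2 scale. A missed threshold here therefore does not show that a level was equal.

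**Figure D2:**
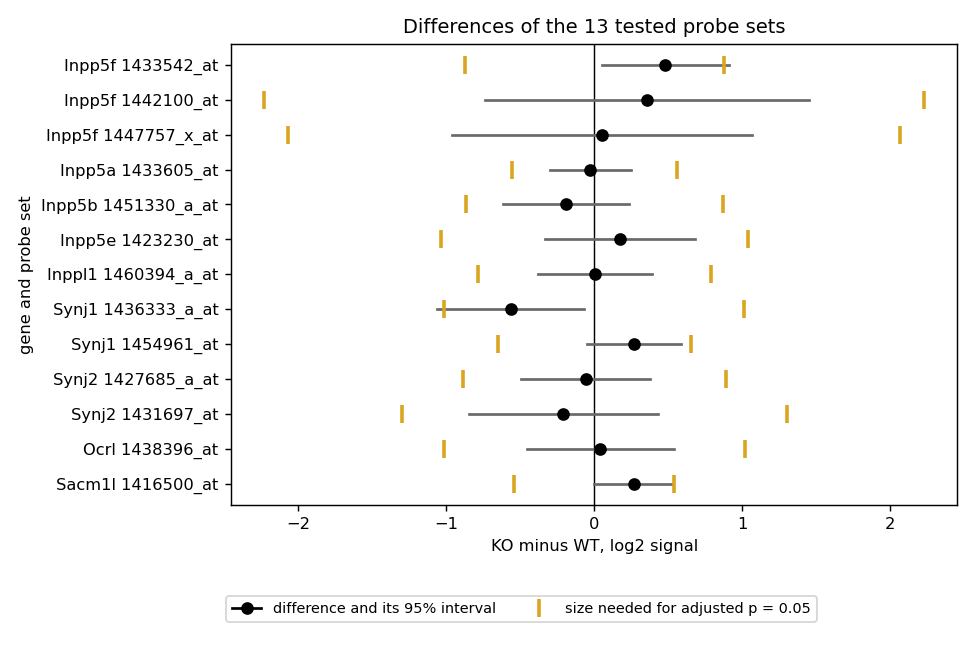
Difference between KO and WT in log2 signal for the 13 tested probe sets, with points for the estimate, lines for its 95% interval in limma and yellow ticks for the size that would have reached an adjusted p of 0.05. Every point lies inside its ticks, and the intervals of Inpp5f 1433542_at, Sacm1l and Synj1 1436333_a_at leave out 0.

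Inpp5f, the Sac-domain gene studied with HDAC2, read 107 and 146 on the WT arrays and 177 and 172 on the KO arrays at its brightest probe set, 1433542_at. Both KO arrays lay above both WT arrays, and the WT arrays differed from each other by 1.36-fold while the KO arrays differed by 1.03-fold. The difference was 0.48 ± 0.20 (SE, n = 2 arrays per group), or 1.39-fold with a 95% interval from 1.03-fold to 1.88-fold (unadjusted p = 0.0315, adjusted p = 0.274 in limma). Its size rested on WT replicate 1, the lowest array. Leaving that array out gave 0.26 (adjusted p = 0.816), and leaving out WT replicate 2 gave 0.70 (adjusted p = 0.218). All 4 arrays called the probe set Present, with detection p-values of 0.000244 to 0.000732.

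MAS5 deposits a further measure for each probe set, the signal log ratio, which compares an array with a baseline array probe pair by probe pair. The baseline array is not stated in the sources used here. In the authors' deposited signal log ratio, Inpp5f 1433542_at stood at -2.6 and -2.1 on the WT arrays and -2.0 and -2.3 on the KO arrays. The groups overlapped in this measure, since the second KO array fell between the WT arrays, and the mean difference was 0.20 (adjusted p = 0.737 in limma). Of the 19065 probe sets tested, 0 passed in this measure, and Hdac2 itself did not (-5.40, adjusted p = 0.0771 in limma). A missed threshold in the signal log ratio therefore cannot tell a change from none. Over all probe sets tested, the differences in both measures correlated at r = 0.807, a description across probe sets, which are not independent. Of the 9061 probe sets whose signals did not overlap between the groups, 49.2% also had their groups apart, in the same direction, in the signal log ratio. Among the 5 such probe sets of the family, 3 kept their groups apart in the same direction (Sacm1l and both of Synj1), while Inpp5f 1433542_at and Inpp5b did not.

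**Figure D3:**
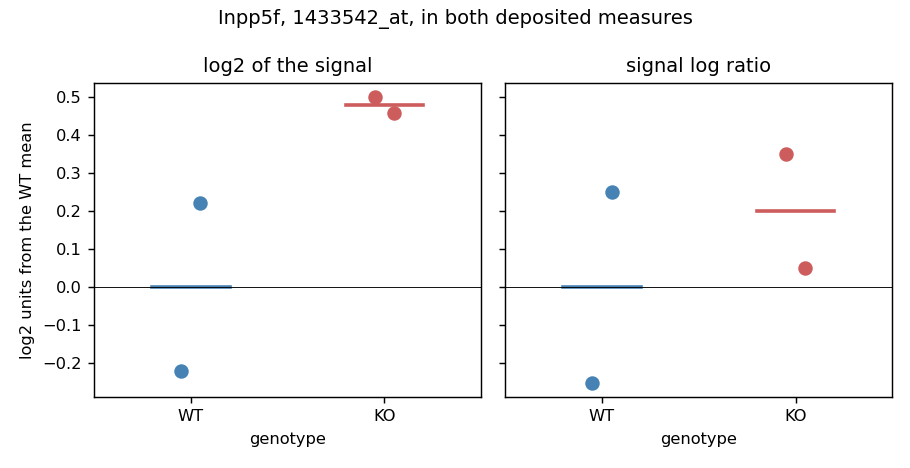
Inpp5f at probe set 1433542_at, each point an array and each bar a group mean, as log2 units from the WT mean, with the log2 signal on the left and the signal log ratio on the right. The KO points sit at 0.50 and 0.46 on the left, above both WT points, and at 0.35 and 0.05 on the right, where the lower one lies below a WT point at 0.25.

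The other probe sets of Inpp5f were dim. Probe set 1442100_at read 21.1 and 12.1 on the WT arrays and 27 and 15.5 on the KO arrays, and 1447757_x_at read 21 and 14.8 on the WT arrays and 17.5 and 19.1 on the KO arrays. The groups overlapped at both, and both were Absent on the second WT array and Present on the other arrays. The differences were 0.36 ± 0.51 (adjusted p = 0.779 in limma) and 0.052 ± 0.47 (adjusted p = 0.970). In the authors' deposited signal log ratio 1442100_at overlapped too, but 1447757_x_at stood at -3.2 and -3.8 on the WT arrays and -3.1 and -2.9 on the KO arrays. There its groups were apart, KO above WT by 0.50 (adjusted p = 0.470 in limma). With all 3 probe sets averaged, Inpp5f stood at 0.30 (adjusted p = 0.667).

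Sacm1l, which encodes the SAC1 phosphatase that clears phosphatidylinositol 4-phosphate at the endoplasmic reticulum and Golgi, read 669 and 650 on the WT arrays and 744 and 845 on the KO arrays. Both KO arrays were above both WT arrays, and the KO arrays differed by 1.14-fold. The difference of 0.27 ± 0.12 (1.20-fold) did not pass (unadjusted p = 0.0491, adjusted p = 0.320 in limma), and its 95% interval ran from 0.0012 to 0.53. In the authors' deposited signal log ratio the WT arrays stood at 4.0 and 3.9 and the KO arrays at 4.4 and 4.5. Here the groups stayed apart, by 0.50 (adjusted p = 0.356 in limma). The difference was 0.17 without KO replicate 2, the highest array (adjusted p = 0.640).

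Synj1 encodes synaptojanin 1, which strips phosphoinositides from clathrin-coated vesicles, and its probe sets went opposite ways. At the brighter one, 1454961_at, the WT arrays read 253 and 259 and the KO arrays 304 and 312. At 1436333_a_at the WT arrays read 90.6 and 98.6 and the KO arrays 64.1 and 63.6. At the first probe set both KO arrays were above both WT arrays and at the second both were below, with replicate arrays within 1.09-fold of each other at both. The differences were 0.27 ± 0.15 (adjusted p = 0.404 in limma) and -0.57 ± 0.23 (unadjusted p = 0.0285, adjusted p = 0.265 in limma), so neither passed, and the second was -0.30 in the signal log ratio (adjusted p = 0.453). Averaged over both probe sets, the gene stood at -0.15 (adjusted p = 0.661).

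The ratio of these probe sets within each array was examined after their values were seen. As log2 of 1454961_at over 1436333_a_at it was 1.48 and 1.39 on the WT arrays and 2.25 and 2.29 on the KO arrays, 1.78-fold higher in KO. The groups did not overlap, which follows from the opposite directions of the probe sets. In a two-sided exact permutation test p = 0.333, the smallest value that 2 arrays against 2 can give, so nothing was read from the test. In the authors' deposited signal log ratio, from the same arrays, the gap between the probe sets was 1.8 and 1.6 on the WT arrays and 2.4 and 2.3 on the KO arrays, also apart. Which Synj1 transcripts each probe set reads is not stated in the sources used here, though RefSeq lists 2 start sites with overlapping windows. The 3' to 5' signal ratios of the actin and Gapdh controls were also higher on both KO arrays than on both WT arrays. Their part in the Synj1 ratio was not tested. A further pair of Synj1 probe sets, 1436334_at and 1439997_at, had no Present call on any array.

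**Figure D4:**
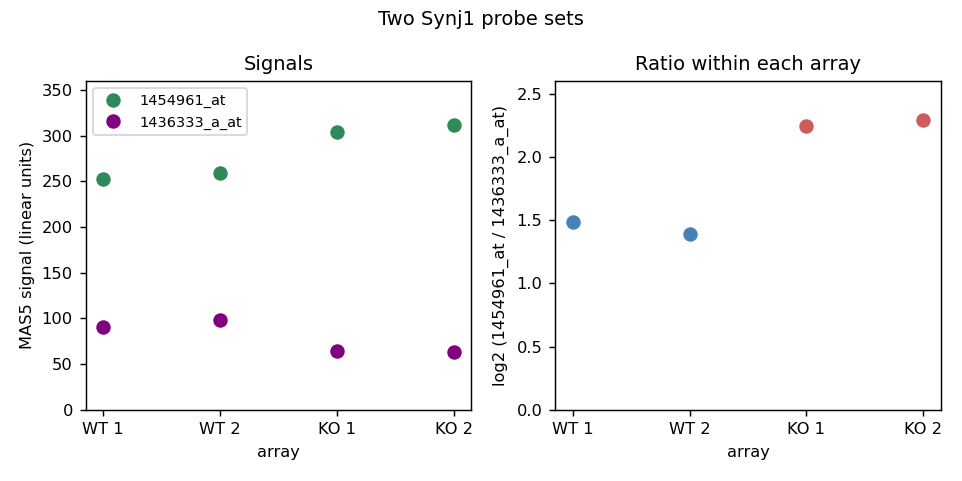
Left, MAS5 signals of Synj1 probe sets 1454961_at (green) and 1436333_a_at (purple) on each array. Right, the log2 ratio of the first to the second within each array (blue WT, red KO), which lies at 1.39 to 1.48 in WT and 2.25 to 2.29 in KO.

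Synj2, the second synaptojanin, which is less tied to nerve terminals, read 123 and 109 on the WT arrays and 115 and 107 on the KO arrays at 1427685_a_at. The groups overlapped, and the difference was -0.058 ± 0.20 with a 95% interval from -0.49 to 0.38 (adjusted p = 0.923 in limma). In the authors' deposited signal log ratio Synj2 stood at 1.4 and 1.3 on the WT arrays and 1.5 and 1.7 on the KO arrays at this probe set. There the groups were apart, KO above WT by 0.25 (adjusted p = 0.440 in limma). Its other tested probe set, 1431697_at, read 47.7 and 64.5 on the WT arrays and 54.7 and 42.1 on the KO arrays (-0.21 ± 0.30, adjusted p = 0.777). The remaining 4 Synj2 probe sets had no Present call on any array.

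Inppl1 and Inpp5d encode SHIP2 and SHIP1, which remove the 5-phosphate from a lipid that activates Akt. Inppl1, made in many tissues, read 266 and 233 on the WT arrays and 291 and 214 on the KO arrays. The KO arrays lay on either side of the WT arrays, and the difference was 0.0065 ± 0.18, with a 95% interval from -0.38 to 0.39 (adjusted p = 0.991 in limma). The sign of this value turned with quantile normalization (-0.0074) and with median centring (-0.025). In the authors' deposited signal log ratio Inppl1 stood at 0.8 and 0.9 on the WT arrays and 0.6 and 0.5 on the KO arrays, apart and lower in KO by 0.30 (adjusted p = 0.368 in limma).

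Inpp5d is a gene of blood cells, and it was not detected well enough to be tested. Its probe set 1418110_a_at read 91.9 and 117 on the WT arrays and 77.8 and 72.1 on the KO arrays, with a Marginal call on the second WT array and Absent calls elsewhere. At 1424195_a_at the WT arrays read 81.1 and 57.4 and the KO arrays 55.9 and 29.9, all Absent. Both KO arrays were below both WT arrays at each probe set. The 12 leukocyte genes were also lower in summed signal, from 1589 and 1667 on the WT arrays to 1353 and 1406 on the KO arrays, although 0 of the 7 tested passed in limma and 1, Csf1r, had an unadjusted p under 0.05 (lower in KO). C1qa, C1qc and Cx3cr1 were not Present on any array. Their part in the Inpp5d signals was not tested.

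Inpp5a, which acts on soluble inositol trisphosphate and so ends the calcium signal, read 1485 and 1390 on the WT arrays and 1602 and 1240 on the KO arrays. The KO arrays enclosed the WT arrays and differed from each other by 1.29-fold. The difference was -0.028 ± 0.13, with a 95% interval from -0.30 to 0.25 (adjusted p = 0.942 in limma).

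Inpp5b and Ocrl are close relatives that act on endosomes and the Golgi, and loss of the latter causes Lowe syndrome in people. Inpp5b read 131 and 129 on the WT arrays and 106 and 123 on the KO arrays. Both KO arrays were below both WT arrays, but the difference did not pass (-0.19 ± 0.20, adjusted p = 0.677 in limma), and the KO arrays differed by 1.16-fold. In the signal log ratio deposited by the authors, 1 KO array equalled the WT arrays at -2.4 and the other stood at -2.6.

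Ocrl is on the X chromosome, whose Xist transcript differed between the groups. At 1438396_at it read 79.8 and 110 on the WT arrays and 101 and 91.7 on the KO arrays. The KO arrays lay between the WT arrays, and the difference was 0.041 ± 0.23 (adjusted p = 0.951 in limma). Its other probe sets, 1438284_at and 1457313_at, were Absent on all 4 arrays.

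Inpp5e, a 5-phosphatase of the primary cilium, read 85.1 and 77.7 on the WT arrays and 79.2 and 106 on the KO arrays at 1423230_at. The groups overlapped (0.17 ± 0.24, 95% interval from -0.33 to 0.68, adjusted p = 0.765 in limma). At its other probe set, 1423229_at, the WT arrays read 94.1 and 149 and the KO arrays 116 and 65.3. That probe set was Present on 1 array of each group and was not tested.

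The 11 untested probe sets belonged to Inpp5d, Inpp5e, Ocrl, Synj1 and Synj2, and 10 of them had no Present call on any array. At 3 of the 11 both KO signals lay beyond both WT signals, where 36.1% of the 25972 probe sets not tested were apart, so nothing was read from this count. The KO signals were below at both Inpp5d probe sets and above at Ocrl 1457313_at (WT arrays 21.9 and 25.2, KO arrays 38.6 and 28.4). Signals of probe sets called Absent cannot be told from background, so these are given as values alone.

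Other enzymes of phosphoinositide metabolism were taken from 12 lists by role, with 94 genes, of which 87 were on the array and 72 were tested. At the brightest probe set of each gene 0 were higher and 0 lower past the threshold in limma, with 4 higher and 3 lower at an unadjusted p under 0.05 (9.72% of 72). Over all 126 tested probe sets of the lists the share was 11.1%, where the background over all probe sets was 15.5%. Neither share was read as a result about the lists. The median difference over the 72 genes was 0.035. The remaining 5-phosphatase that could be tested, Inpp5k of muscle and endoplasmic reticulum, read 340 and 314 on the WT arrays and 355 and 308 on the KO arrays (0.017 ± 0.15, adjusted p = 0.969). At the brightest probe sets of the 13 tested 3-phosphatases the smallest p belonged to Mtmr1, a myotubularin, at 92.8 and 93.1 on the WT arrays and 139 and 156 on the KO arrays (0.66 ± 0.20, adjusted p = 0.133 in limma). The groups were apart, and it did not pass. A secondary probe set of Sbf2, an inactive myotubularin relative, had a smaller p and went the other way, with 148 and 107 on the WT arrays and 58.7 and 73.1 on the KO arrays at 1443160_at (-0.94 ± 0.24, adjusted p = 0.0793 in limma). It did not pass, and the brightest Sbf2 probe set stood at 0.042 ± 0.10 (adjusted p = 0.884).

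The kinases that make these lipids gave the same counts of 0. Among 11 tested PI 3-kinase subunits, Pik3cd, the catalytic subunit of leukocytes, came closest, at 879 and 1083 on the WT arrays and 793 and 510 on the KO arrays (-0.62 ± 0.18, adjusted p = 0.117 in limma). Its call on the second KO array was Marginal. None of the 10 PI 4-kinases and PIP kinases had an unadjusted p under 0.05, and Pi4k2b had the smallest (0.36 ± 0.24). Pikfyve, the kinase that works with the Sac-domain protein Fig4, stood at 0.52 ± 0.22 (adjusted p = 0.293). It was Marginal and Absent on the WT arrays, so the size of this difference is uncertain. For the 4-phosphatases Pip4p2 had the smallest p (0.23 ± 0.13), and for the inositol phosphate kinases Ppip5k1 (-0.28 ± 0.22). Impa1, which recycles inositol, stood at 0.29 ± 0.13 (adjusted p = 0.315 in limma). Cds2, which makes the precursor of phosphatidylinositol, stood at 0.29 ± 0.13 at its brightest probe set (adjusted p = 0.295 in limma). Every other tested probe set of Cds2 went the other way, with differences from -0.069 to -0.38, and none passed. Plcb1, a phospholipase C, stood at -0.60 ± 0.27 (adjusted p = 0.312) and was Absent on the second KO array. Itpr2, the single inositol trisphosphate receptor tested, stood at 0.077 ± 0.21.

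Among all 126 tested probe sets of these lists, 0 were higher and 2 lower past the threshold, both secondary probe sets of Akt kinases. That is 1.59%, near the 1.34% of all probe sets tested, and nothing about the lists was read from it. Akt1 1425711_a_at fell from 574 and 329 on the WT arrays to 139 and 175 on the KO arrays (-1.48 ± 0.23, adjusted p = 0.00458 in limma), while the brightest Akt1 probe set read 1299 and 1127 on the WT arrays and 1099 and 1104 on the KO arrays and did not pass (adjusted p = 0.599). Akt2 1421324_a_at read 166 and 109 on the WT arrays, both Present, and 52.9 and 63.9 on the KO arrays, both Absent. The difference was -1.21 ± 0.25 (adjusted p = 0.0340 in limma). Its size is uncertain, because the KO signals cannot be told from background. The brightest Akt2 probe set stood at -0.37 ± 0.14 (adjusted p = 0.228). The difference at Akt2 1421324_a_at shrank to -0.90 without WT replicate 1 and -1.07 without KO replicate 1. It grew to -1.51 without WT replicate 2 and -1.34 without KO replicate 2, so its size depended on single arrays. This probe set did not pass with quantile normalization (adjusted p = 0.0581 in limma). Neither it nor Akt1 1425711_a_at passed without a variance trend (0.208 for Akt2 and 0.207 for Akt1) or without the filter (0.305 and 0.192). In the signal log ratio, where 0 of all probe sets tested passed, the differences were -1.20 for Akt2 and -1.65 for Akt1. The 12 tested skeletal muscle genes were lower in KO too, with a median difference of -4.23, and their part in the Akt values was not tested.

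**Figure D5:**
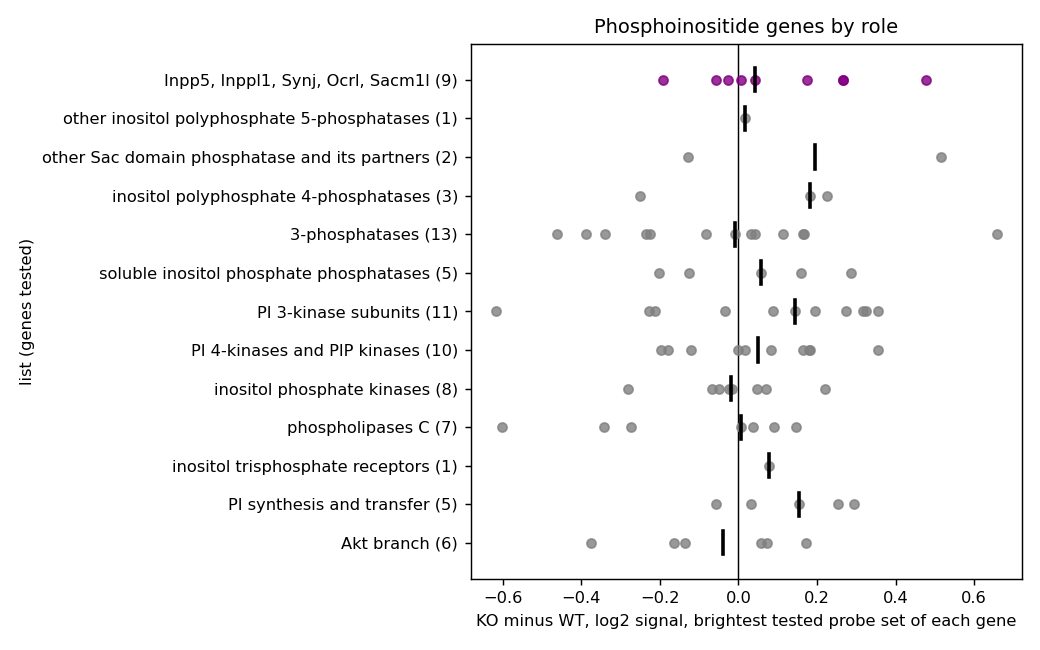
Difference between KO and WT in log2 signal for each gene's brightest tested probe set, with a row for each role list (number of genes tested in parentheses), the family of Inpp5f in purple and black bars for medians. The medians lie between -0.040 (Akt branch) and 0.19 (Fig4, Vac14 and Pikfyve, of which 2 were tested), with 0.041 for the family of Inpp5f, and no point shown passed the test.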

How the data were processed

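Groups came from the sample titles. Per the submitters' processing notes the authors made the signals with MAS5, whose version is not stated in the sources used here. Per the file headers, each deposited probe set has a signal, which is an intensity on a linear scale, a detection p-value with its call, and a signal log ratio, which is on a log2 scale. A MAS5 change p-value is deposited too and was not used here. The 2% trimmed mean of the deposited signals was 150 on every array, so no scaling was added. The 3' to 5' signal ratio of the actin controls was 1.85 and 2.32 on the WT arrays and 2.75 and 2.42 on the KO arrays. That of the Gapdh controls was 0.844 and 0.949 on the WT arrays and 1.18 and 1.01 on the KO arrays. Both KO arrays were above both WT arrays in each ratio. The deposited series table held the same signals.

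Of 45101 probe sets, 64 controls were left out. Names came from the platform's annotation (34945 probe sets with 1 gene, 932 with several, 9160 not listed), updated through a table of assembly GRCm38.p6. limma 3.58.1 in R 4.3.3 fitted genotype on log2 signal with eBayes and a variance trend. The 4 signals of 0 were set to 0.1, a step added to the plan. Differences are KO minus WT ± the moderated standard error, and p-values are two-sided. Where no array of a group called a probe set Present, its signals there cannot be told from background, and the size of its difference is uncertain. The fit was also run on simulated normal data whose means and spreads came from the fit itself. That checks the working of the fit and not the calls made on these arrays.

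The genes, lists and tests were chosen with earlier results of these data known. Every gene of the family is named, as are, in each role list, the gene with the smallest p at its brightest tested probe set and genes with a probe set past the threshold, and, in each marker list that moved, the marker with the largest difference. Genes named beyond this rule, such as Sbf2, were chosen after their values were seen. The planned search for catalytic motifs in the proteins was not run, as no protein sequences were used here. The alternatives were other normalizations, offsets, filters, variance models, the replicate block, the signal log ratio, averaged probe sets, and each array left out. The number of arrays, 2 per group, limits the precision.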

Additional observations from a re-analysis of the deposited data

How the results depend on the processing

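No probe set of the family passed the threshold in the fit as reported or under any of the 14 alternatives run over all probe sets, and averaging the probe sets of a gene passed none of the 9 genes either. The lowest adjusted p was 0.153, for Sacm1l without KO replicate 1. Inpp5f at its brightest probe set stayed between 0.20 and 0.70, Sacm1l between 0.17 and 0.50, Inpp5b between -0.30 and -0.084 and Synj1 1436333_a_at between -0.63 and -0.30, with no change of sign. Synj1 1454961_at stayed between 0.22 and 0.35 in every fit of that probe set. The remaining probe sets changed sign under an alternative. Inpp5a turned to 0.10 in the signal log ratio and ranged from -0.21 to 0.16 with an array left out. Inppl1 turned to -0.025 with median centring, -0.0074 with quantile normalization and -0.30 in the signal log ratio, and ranged from -0.22 to 0.23 with an array left out. Synj2 turned to 0.0076 with quantile normalization and 0.25 in the signal log ratio, and ranged from -0.15 to 0.029 with an array left out, and its 1431697_at turned to 0.10 in the signal log ratio and ranged from -0.43 to 0.0087. Synj1 turned to -0.15 when 1454961_at was averaged with 1436333_a_at, which differed in the opposite direction. With an array left out Inpp5e ranged from -0.038 to 0.39, Ocrl from -0.19 to 0.27, Inpp5f 1442100_at from -0.045 to 0.76 and Inpp5f 1447757_x_at from -0.20 to 0.30. The cause was not tested.

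Over all probe sets tested, 73 were higher and 183 lower. These counts were 7 and 30 without the filter, 4 and 19 without a variance trend, 0 and 0 in the signal log ratio (2544 at an unadjusted p under 0.05), and 48 to 222 and 110 to 428 with an array left out. The 2 lower probe sets of the role lists became 1 when Present calls were required on all 4 arrays or with quantile normalization, 0 without the filter, 0 without a variance trend and 0 in the signal log ratio, and 1 to 3 with an array left out. Hdac2 had -5.40 in the signal log ratio (adjusted p = 0.0771). The titles give both groups the numbers 1 and 2, with the letter A for WT and B for KO. Deviations of same-numbered arrays correlated at -0.0113, so the numbers were not taken to pair the samples, though 2 arrays per group cannot settle this. A fit with the replicate block gave 271 higher and 450 lower overall and 4 lower in the role lists, with 0 of the family.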
